A study of Ceratopteris richardii with 15 samples.

Results

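The root behind its tip was compared with the leaf behind its tip in sporophytes of the fern Ceratopteris richardii. Of 15 RNA sequencing libraries, 6 enter this comparison, namely root without root tip (3 libraries) and leaf without leaf tip (3 libraries). The other 9 came from root tip, leaf tip and shoot tip and serve below to place the genes that separate root and leaf. All plants were wild type RNWT1, grown from spores on medium under long days and sampled at 50 days, and no treatment or genetic change divides the groups. Every library is a bulk extract of many cell types. The 3 leaf columns could not be tied to single numbered samples and are called leaf replicates a, b and c.

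Fern roots anchor the plant and take up water and mineral ions, while fern leaves, or fronds, carry out most of the photosynthesis and later bear the spores. Both organs are produced by apical cells at the growing tips, and behind the tips their cells enlarge and differentiate around a vascular strand. The comparison therefore sets differentiated tissue of a non-photosynthetic organ beside that of a photosynthetic organ.

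Expression was given as TPM, which corrects read numbers for gene length and brings all libraries to 1 common sum, for 88641 genes of a transcript assembly. The identifiers carry no gene names, and 0 of them matched the 36816 genes of a reference table for the species, so genes are given by identifier or by pattern and no function is assigned. For the same reason the labelled organs were not checked against defining marker genes. Of the 88641 genes, 31397 had at least 1 TPM in 3 or more of the 6 libraries. From these, 908 genes were left out because every library outside root held less than 10% of their mean in root. Their share of the summed root TPM was 8.75% ± 0.599 (SD, n = 3). The remaining 30489 genes were tested. This exclusion has no counterpart for leaf, where the mirrored rule would have removed 211 genes. At its edge, 97 genes whose highest library outside root held 10% to 12% of the root mean were kept, with a median log2 difference of 3.05 between root and leaf, and 109 genes at 8% to 10% were left out, with a median of 3.04.

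Transcripts were spread over more genes in root than in leaf. In root, 50% of the summed TPM lay in 1284, 1283 and 1181 genes in replicates 1, 2 and 3, against 655, 680 and 628 genes in leaf replicates a, b and c. The libraries of the organs did not overlap in this number. At the top of the range the order was the reverse: 66, 66 and 63 genes reached 1000 TPM in the root libraries, against 93, 92 and 91 in the leaf libraries. Of the 100 most abundant genes of root, 16 belonged to the genes left out, 48 were called higher in root by the test below, 7 were called higher in leaf and 29 were tested and not called. Of the 100 most abundant genes of leaf, 73 were called higher in leaf, 7 were called higher in root and 20 were not called. The lists shared 32 genes. These lists were chosen on the same values as the calls, so their counts are descriptions.

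Root replicate 3 differed from replicates 1 and 2 in many genes. Among the 13314 tested genes averaging at least 10 TPM in root, 502 and 500 differed by over 2-fold between replicate 3 and replicates 1 and 2, against 5 between replicates 1 and 2 and at most 3 between any pair of leaf libraries, among 12381 genes at that level in leaf. The genes over 2-fold higher in replicate 3 than in the mean of the others on the log2 scale numbered 294, with a median of 27.5 TPM in root, 3.05 TPM in leaf and 16.8 TPM in root tip, and 202 genes were over 2-fold lower. Of the 294 genes, 177 were called higher in root and 46 higher in leaf by the test below. Of the 202 genes, 125 and 28 were. Both sets were limited to genes averaging at least 10 TPM in root. Over all tested genes, 19.9% and 16.1% were called so. The part of these genes in the results was not tested, but the main counts below are also given without replicate 3.

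Root and leaf differed in 10951 of the 30489 tested genes (35.9%). The test was limma on log2(TPM + 1) of the 6 libraries, and a gene was called at a Benjamini-Hochberg adjusted p under 0.05 with at least a 2-fold difference. In root, 6053 genes were higher (19.9% of those tested) and 4898 were lower (16.1%). Leaving out root replicate 3 gave 6387 higher and 4955 lower. In bulk tissue a lower level can come from fewer cells of a type or from less RNA per cell, and the values cannot tell these apart. The balance of directions turned with the scaling of the libraries. Calls higher in root made up 55.3% with the values as deposited, 48.5% with median-ratio scaling and 41.5% with quantile normalization. The median log2 difference of all tested genes was 0.256 as deposited, 0.0942 with median-ratio scaling and -0.0214 with quantile normalization. Called under all 3 scalings were 4494 genes higher in root and 4894 higher in leaf.

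**Figure D1:**
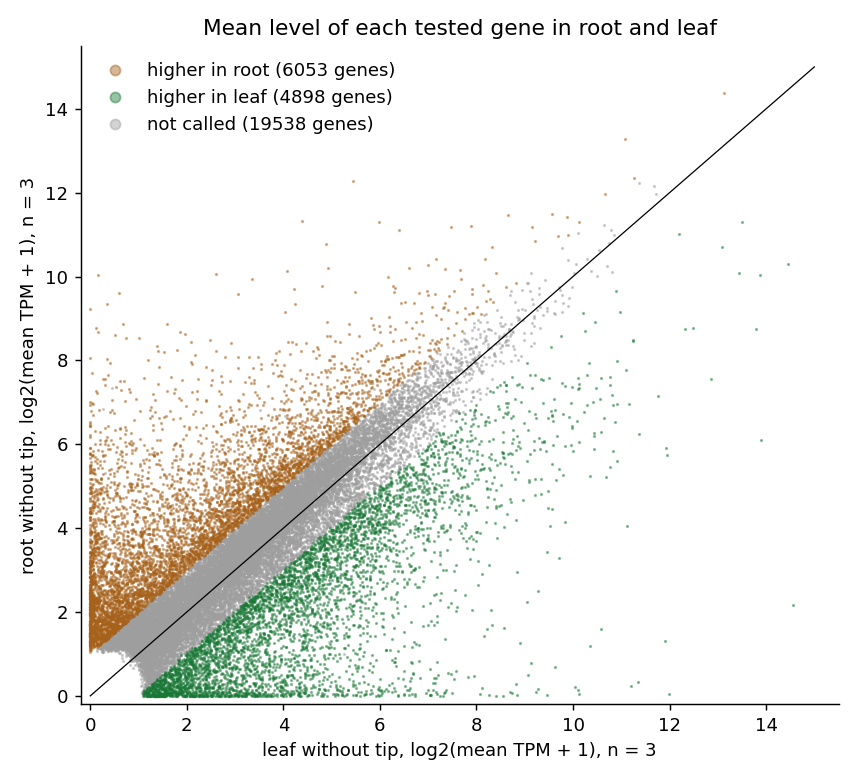
Mean level of each of the 30489 tested genes, log2(mean TPM + 1) of 3 root libraries on the vertical axis and of 3 leaf libraries on the horizontal axis, with the line of equal levels in black. The 6053 genes called higher in root lie above the line, the 4898 called higher in leaf below it, and both groups reach the axis on which the gene is near 0 in the other organ.

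Most of the called genes were found in both organs, though a smaller part of them than of the genes not called. Of the genes higher in root, 3664 (60.5%) averaged 1 TPM or more in leaf as well as in root, and 3168 of the genes higher in leaf (64.7%) did so. Of the genes not called, 88.7% did so. With the 908 excluded genes kept, it was 3767 of 6955 genes higher in root. Among all 24168 tested genes at that level in both organs, 28.3% were called, 15.2% higher in root and 13.1% higher in leaf. Without root replicate 3 the numbers were 3919 and 3168. Median-ratio scaling turned this balance, with 3177 higher and 3842 lower in root. Genes that reached 1 TPM in all libraries of 1 organ and in none of the other numbered 2955 for root and 1903 for leaf. These passed the filter through that organ alone and so had to differ in this direction.

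Differences of 2-fold to 4-fold were the most frequent. They made up 3793 of the genes higher in root (62.7%) and 2751 of the genes higher in leaf (56.2%). Another 1825 and 1726 genes differed by 4-fold to 16-fold. At the far end, 67 genes were over 64-fold higher in root and 90 were over 64-fold higher in leaf. The 908 genes left out are not in these counts, while the 211 genes of the mirrored leaf rule are. The fold classes of the 2 sides are therefore not comparable. These folds are on the log2(TPM + 1) scale, which understates the difference of low genes.

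Abundant genes were called most often. Of 1507 genes averaging 100 TPM or more over the 6 libraries, 51.2% were called, against 32.9% of 11922 genes below 5 TPM, and the most abundant class also led under the other scalings, with 48.9% and 49.5%. In that class root was higher in 23.8% of genes and leaf in 27.5%, and the leaf side was the larger one under all 3 scalings. The 908 genes left out are in none of these classes, while the 211 genes of the mirrored leaf rule are. Of the 100 most abundant genes of root, 16 were left out in this way. The classes were not recounted with the 908 genes kept, so whether the larger leaf side depends on the exclusion was not tested. Below 5 TPM root was higher in 19.4% and leaf in 13.5%, but quantile normalization turned this to 13.6% and 22.3%. The 10951 calls among 30489 genes became 6232 with a pseudocount of 5. When an average of 5 TPM was required, 7027 of 18575 tested genes were called.

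**Figure D2:**
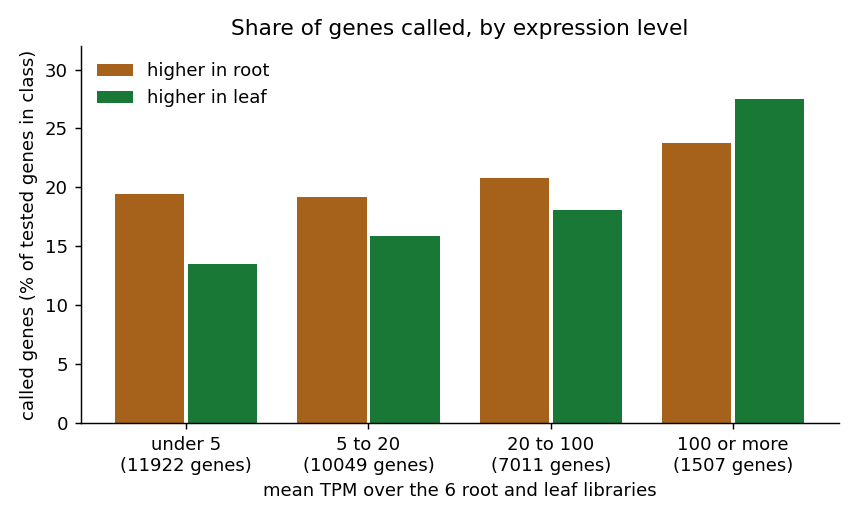
Percent of tested genes called higher in root or higher in leaf, in 4 classes of mean TPM over the 6 root and leaf libraries. The 908 genes left out for their low level outside root are in no class. The root-higher share is the larger one in the 3 lower classes, and the leaf-higher share is the larger one at 100 TPM or more, with 23.8% for root and 27.5% for leaf, while under quantile normalization the leaf share is the larger one in all 4 classes and under median-ratio scaling in all but the lowest.

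For most genes without a call the interval of the difference was narrow. For 15123 of the 19538 genes not called (77.4%), the 95% interval of the log2(TPM + 1) difference lay between -1 and 1. On this scale low genes can differ by over 2-fold in TPM and still lie inside. Among the 11540 genes not called that averaged 5 TPM or more over the 6 libraries, 9668 (83.8%) lay inside. For 4415 of all genes not called the interval reached beyond these bounds. The genes not called made up 47.7% ± 0.4 of all TPM in root and 41.4% ± 0.407 in leaf (SD, n = 3 each).

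The genes called higher in each organ carried much of its RNA. Root-higher genes made up 34.5% ± 0.176 of all TPM in root and 7.98% ± 0.0445 in leaf. Leaf-higher genes made up 6.62% ± 0.231 in root and 49.6% ± 0.419 in leaf (SD, n = 3 each). In the median, a root-higher gene stood at 13.7 TPM in root and 2.0 TPM in leaf, and a leaf-higher gene at 2.58 TPM in root and 17.3 TPM in leaf. These shares follow in part from the choice of the genes on the same libraries. With the 908 excluded genes put back, the root-higher genes made up 43.2% in root and 8.18% in leaf.

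The tips, whose values entered the choice of genes only through the exclusion of the 908, gave the same gene sets intermediate weights. Root-higher genes made up 18.9% ± 0.116 of all TPM in root tip, against 8.1% ± 0.0285 in leaf tip, and shoot tip was between them at 11.6% ± 0.301 (SD, n = 3 each). Leaf-higher genes made up 16.1% ± 0.0826 in root tip, against 24.6% ± 0.0618 in leaf tip, and shoot tip was again between them at 19.2% ± 0.0358. No root tip library overlapped a leaf tip library in either share. Across the plant, the weight of the root-higher genes thus ran from root over root tip and shoot tip to leaf tip and leaf, with leaf tip and leaf close at 8.1% and 7.98%. For the leaf-higher genes the order ran from leaf over leaf tip, shoot tip and root tip to root.

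**Figure D3:**
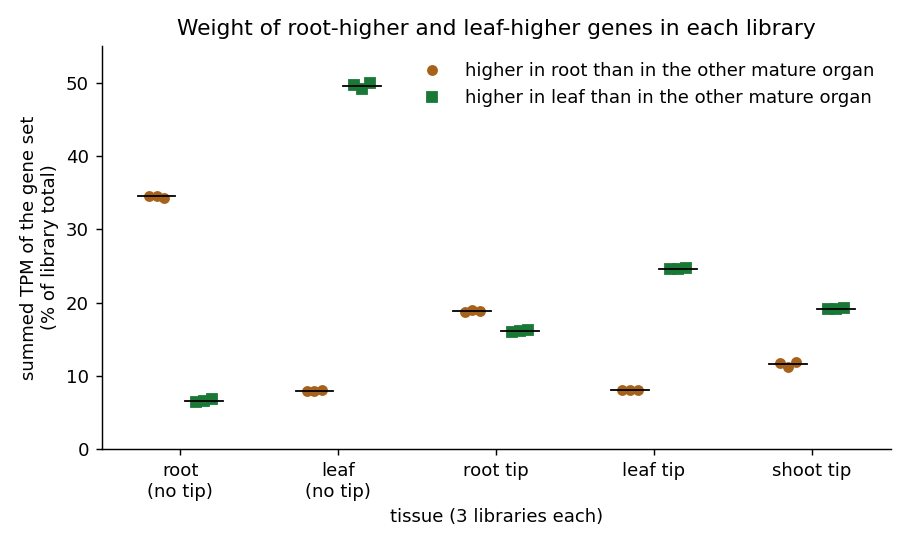
Percent of each library's summed TPM held by the 6053 root-higher genes (circles) and the 4898 leaf-higher genes (squares), with 1 point per library and a black line at the mean of 3. The tips lie between the mature organs, except that the root-higher share in leaf tip, 8.1%, is close to that in leaf, 7.98%.

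The tissue with the highest mean was counted for each set. Among root-higher genes 4382 (72.4%) had their highest mean in root itself. The peak was in root tip for 1046 (17.3%), leaf tip for 287 (4.74%) and shoot tip for 338 (5.58%). Among leaf-higher genes 2869 (58.6%) had it in leaf itself, with root tip for 351 (7.17%), leaf tip for 1153 (23.5%) and shoot tip for 525 (10.7%). Among genes not called, 21.0% had their highest mean in root and 9.6% in leaf. The peak of genes not called was in root tip for 18.2%, leaf tip for 32.3% and shoot tip for 19.0%. The sets were called on these same root and leaf values, which favours a peak in their own organ. That no gene of either set peaked in the other mature organ follows from the calls. These counts are descriptions, and the difference between the sets was not tested.

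The same organ contrast was then made between root tip and leaf tip, in 6 libraries that the mature comparison does not use. Of the 30489 genes, 26.2% were called there, 4521 on the root tip side (14.8%) and 3461 on the leaf tip side (11.4%). These genes had passed a filter on their level in the mature root and leaf libraries, so genes found only in tips were left out. Without that filter 72598 genes were tested, and the sides of the tip contrast were nearly even, with 5218 and 5117 calls. The tip calls then numbered 10335, against 11383 for root against leaf, so the root tip excess depended on the filter. Of the root-higher genes, 2684 (44.3%) were also higher in root tip than in leaf tip, 268 (4.43%) were higher in leaf tip and 3101 (51.2%) were not called in the tips. Of the leaf-higher genes, 389 (7.94%) were higher in root tip, 1599 (32.6%) were higher in leaf tip and 2910 (59.4%) were not called. Among genes without a call in the mature organs, 7.41% were called on the root tip side and 8.16% on the leaf tip side. With the 908 excluded genes kept, the shared part of the root-higher genes was 40.5%. Without root replicate 3, 2663 root-higher and 1594 leaf-higher genes were shared with the tips. By direction alone, 77.9% of the root-higher genes stood above leaf tip in root tip and 71.6% of the leaf-higher genes stood above root tip in leaf tip, where 45.6% and 54.1% of all tested genes did. Across the 30489 genes the log2 differences in the mature organs and in the tips correlated with Pearson's r = 0.509 and Spearman's rho = 0.421. The genes are not independent replicates, and each difference rests on 3 libraries against 3.

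Genes called in both zones were followed through the 5 tissues. The 2684 genes higher in root and in root tip had median levels of 23.0 TPM in root, 2.04 TPM in leaf, 15.4 TPM in root tip, 0.918 TPM in leaf tip and, for shoot tip, 3.26 TPM. The 1599 genes higher in leaf and in leaf tip had medians of 2.14 TPM in root, 20.2 TPM in leaf, 5.76 TPM in root tip, 26.2 TPM in leaf tip and, for shoot tip, 17.6 TPM. The medians of the first set were lower in root tip than in root, and those of the second set were higher in leaf tip than in leaf. The genes with opposite calls in the zones formed small sets. The 268 genes higher in root and in leaf tip had medians of 9.95 TPM in root, 2.42 TPM in leaf, 4.7 TPM in root tip and 15.6 TPM in leaf tip. The 389 genes higher in leaf and in root tip had medians of 2.18 TPM in root, 17.8 TPM in leaf, 17.1 TPM in root tip and 2.93 TPM in leaf tip.

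**Figure D4:**
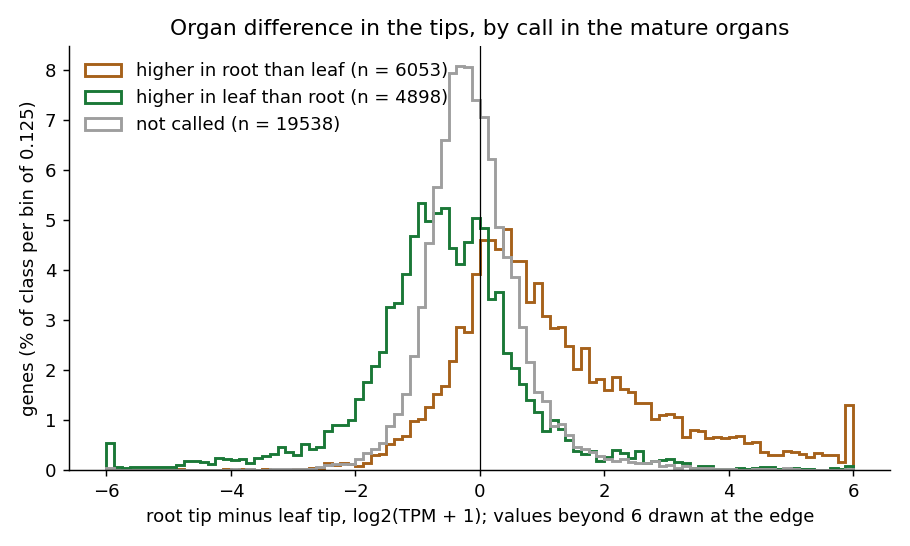
Distribution of the root tip minus leaf tip difference on the log2(TPM + 1) scale for genes called higher in root, called higher in leaf or not called in the mature organs, as percent of each class, with values beyond 6 drawn at the edge. Root-higher genes are shifted to the right (median 0.806) and leaf-higher genes to the left (median -0.587), and each distribution crosses 0.

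Whether the organ difference itself changed between zones was tested as an interaction, root minus leaf against root tip minus leaf tip, in limma over the 12 libraries of these tissues. It was called for 11105 genes (36.4%). The root minus leaf difference was more positive in the mature zone for 6185 genes (20.3%) and more negative for 4920 (16.1%). These counts without root replicate 3 were 6610 and 4983. This balance turned with the scaling too. Calls on the more positive side were 55.7% as deposited, 44.2% with median-ratio scaling and 37.5% with quantile normalization. Without the filter on level in the mature libraries, such calls were 62.5%, with 9353 against 5617 genes among 72598 tested. Of the 4283 genes with the same call in both zones, 1700 of 2684 root-higher and 937 of 1599 leaf-higher genes showed no called change of the difference between zones. Over all 30489 tested genes the interaction was called for 36.4%, and whether these sets depart from that share was not tested.

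A stricter group comprised genes at 10 TPM or more in 1 organ and under 1 TPM in every library of the other. It held 495 of the root-higher genes (8.18%) and 405 of the leaf-higher genes (8.27%). Genes left out by the exclusion could not enter the root count, while genes of the mirrored leaf rule could enter the leaf count. These counts and shares are therefore not a measure of balance between the organs. The 495 root genes had a median of 22.3 TPM in root and a highest value of 1045 TPM. Their medians were 11.4 TPM in root tip, against 0.147 TPM in leaf tip, with shoot tip at 1.06 TPM. The 405 leaf genes had a median of 21.4 TPM in leaf and a highest value of 4053 TPM, with medians of 2.05 TPM in root tip, against 9.29 TPM in leaf tip, and 8.05 TPM in shoot tip. A level in the tips was required of the root genes in advance, since the exclusion removed genes with under 10% of the root mean everywhere else, and it was not required of the leaf genes. The counts at 1 TPM in the tips, 469 of the root genes in root tip and 328 of the leaf genes in leaf tip, are therefore not comparable. In the opposite organ, 57 of the 495 genes were listed at 0 in all 3 leaf libraries and 34 of the 405 in all 3 root libraries, and an exact 0 can be a failed estimate.

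The shoot tip, which forms both leaves and roots, was placed against the mature organs gene by gene. On the log2 scale and with the values as deposited, 13.0% of the 6053 root-higher genes were above both organs in shoot tip, 17.1% lay nearer to root, 40.7% nearer to leaf and 29.2% below both. For the 4898 leaf-higher genes, 28.7% were above both organs, 24.7% lay nearer to leaf, 28.5% nearer to root and 18.1% below both. For root-higher genes the part nearer to leaf exceeded the part nearer to root under all 3 scalings, with 12.5% nearer to root and 36.9% nearer to leaf after median-ratio scaling. The part below both organs depended on the scaling, being 42.0% under median-ratio scaling and 48.0% under quantile normalization. The part of the root-higher genes above both was 8.61% and 10.2%. The placement of the leaf-higher genes moved with the scaling too. With median-ratio scaling 19.9% were above both, 22.4% nearer to leaf, 33.4% nearer to root and 24.4% below both. With quantile normalization these parts were 21.2%, 24.2%, 33.9% and 20.8%.

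Each identifier starts with a tissue code like those of the libraries, and the calls were unevenly spread over these codes. Of the root-higher genes, 46.3% had the root code and 6.72% the leaf code, against 7.53% and 32.8% of the leaf-higher genes and 20.4% and 15.3% of the genes not called. The part of the code in the calls was not tested. Identifiers that differ only in their last number come from the same component of the assembly and can be related copies whose reads are hard to divide. Of 1169 components with several tested genes, 288 had more than 1 called gene. In 166 of these all called genes were higher in root, in 83 all were higher in leaf, and in 39 the directions differed. Of the 2427 tested genes in the 1169 components 42.1% were called, against 35.9% of all tested genes. Of all calls 55.3% were higher in root. Whether the component counts depart from these shares was not tested.

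For single genes the values of all libraries are given for the 2 largest differences in each direction among 1198 called genes averaging 100 TPM or more in the higher organ, with at least 1 TPM in every library of the other and no overlap between the organs. SHA_TRINITY_DN7736_c0_g14 had 967.25, 1004.36 and 1230.33 TPM in root, against 5.41, 5.11 and 4.72 TPM in leaf (log2 fold change 7.45, SE 0.099, limma adjusted p = 2.1e-08). Root tip had 557.18, 577.91 and 587.81 TPM, against 20.13, 19.59 and 20.41 TPM in leaf tip, and shoot tip stood at 332.39, 348.38 and 341.94 TPM. Every root and root tip library was thus above every leaf, leaf tip and shoot tip library, and the gene was also abundant in the shoot tip. Its organ difference was larger in the mature zone than in the tips by 2.68 on the log2 scale (SE 0.108, adjusted p = 1.6e-09).

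RO_TRINITY_DN44374_c0_g2 had 493.26, 500.86 and 401.81 TPM in root, against 2.24, 1.55 and 2.25 TPM in leaf (log2 fold change 7.28, SE 0.128, limma adjusted p = 4.8e-08). Root tip had 178.06, 180.51 and 192.69 TPM, against 0.27, 0.44 and 0.6 TPM in leaf tip, and shoot tip stood at 8.16, 7.74 and 8.81 TPM. This gene was high in both zones of the root and low in every shoot tissue sampled. The interaction between organ and zone was 0.26 (SE 0.165, limma adjusted p = 0.17), which does not show that the differences in the zones were equal. Its sign depended on the pseudocount, with -0.67 at 0.1 and 0.94 at 5. It is 1 of 3 genes of its component, all called higher in root, so reads shared between copies make its level uncertain.

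LA_TRINITY_DN22130_c0_g1 had 2.55, 2.71 and 5.2 TPM in root, against 24175.4, 22904.87 and 25129.27 TPM in leaf (log2 fold change -12.44, SE 0.208, limma adjusted p = 4.2e-08). It was the most abundant gene of the leaf libraries. Root tip had 0.28, 0.81 and 0.78 TPM, against 3006.44, 3064.86 and 3055.13 TPM in leaf tip, and shoot tip had 555.69, 525.25 and 559.72 TPM. The gene was thus graded over leaf, leaf tip and shoot tip and near 0 in both root zones, with an interaction of -1.55 (SE 0.265, limma adjusted p = 0.00027). This value rests on root levels near the pseudocount of 1: at a pseudocount of 0.1 it was -0.64 (limma adjusted p = 0.218), and after quantile normalization it was -0.64 (limma adjusted p = 0.0861).

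LE_TRINITY_DN2085_c0_g1 had 1.31, 1.1 and 3.7 TPM in root, against 1499.12, 1541.42 and 1541.79 TPM in leaf (log2 fold change -9.07, SE 0.291, limma adjusted p = 4.9e-07). It was listed at 0.07, 0 and 0 TPM in root tip, at 0 in all 3 leaf tip libraries, and at 0.06, 0 and 0.07 TPM in shoot tip. High levels were thus found in the leaf behind its tip and in no tip, and the low root values were above those of every tip library. The interaction was -9.11 (SE 0.323, limma adjusted p = 5.4e-10). The genes on the leaf side were both higher in root replicate 3 than in replicates 1 and 2, and without replicate 3 their log2 fold changes were -12.69 and -9.44.

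**Figure D5:**
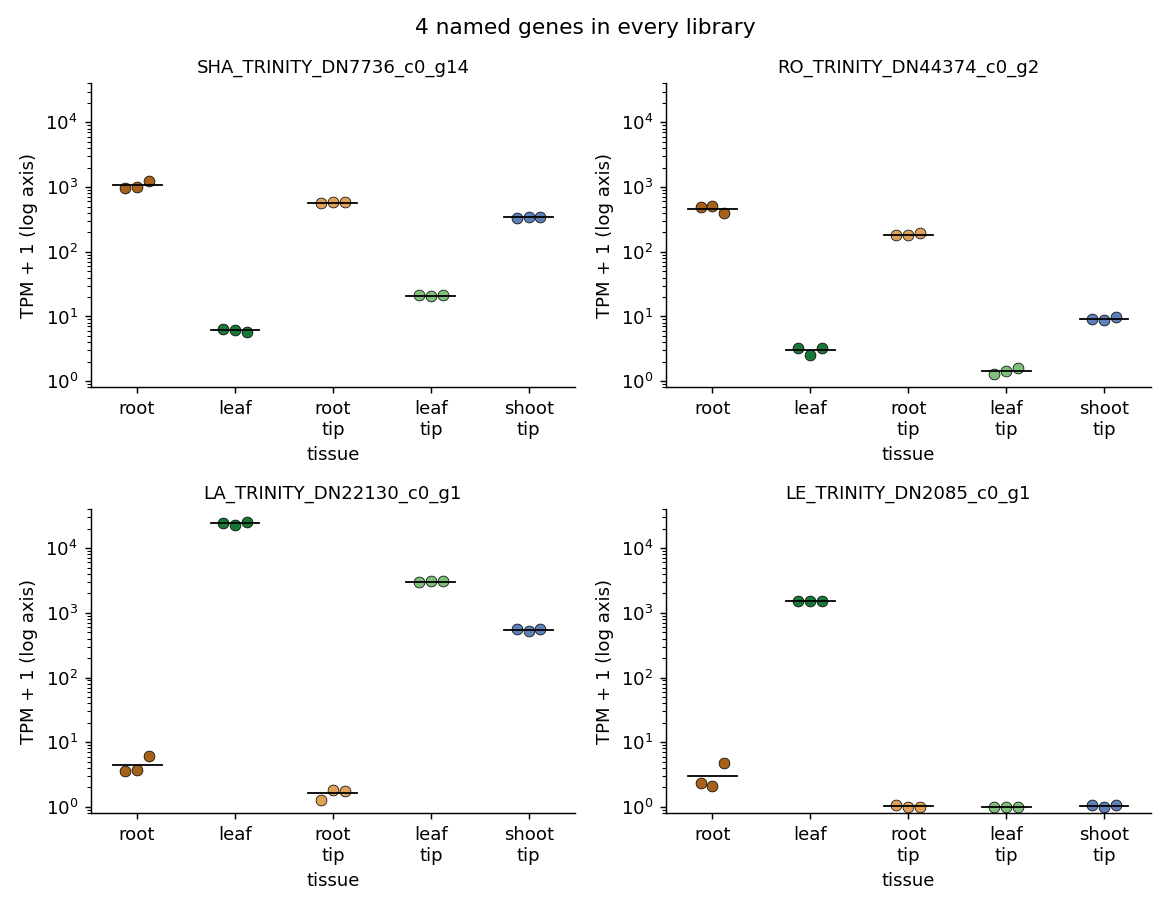
TPM + 1 on a log axis in every library of the 5 tissues for the 4 named genes, with 1 point per library and a line at the mean of 3. The upper genes are high in root and root tip, with shoot tip at 332 to 348 TPM for the first and under 9 TPM for the second, and the lower genes are high in leaf, with leaf tip at 3006 TPM or more for the first and at 0 for the second.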

How the data were processed

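RNA was measured in 15 libraries of 5 tissues, 3 each, at 50 days. Per the labels' protocols, TRIzol was used for extraction and a standard Illumina method for the libraries. The submitters' processing notes name RSEM 1.3.2, Bowtie2 2.3.4.3 and Trim Galore 0.5.0, and their settings are not given in the sources used here. The authors deposited TPM values with 2 decimals, which sum to between 999999.03 and 1000000.65 per library, so depth is unknown and no counting interval could be given.

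Each column was matched to its sample by the description, except the leaf columns, whose names match only the leaf group. Nothing in the labels states that replicates are separate plants or cultures, so p-values cover only the variation among these samples, possibly technical. Values were analysed as log2(TPM + 1) in limma 3.58.1 (R 4.3.3), with empirical Bayes moderation and an intensity trend. Root against leaf used 6 libraries (4 residual degrees of freedom), root tip against leaf tip its own 6, and the interaction 12 (8 residual degrees of freedom), all on the 30489 tested genes with Benjamini-Hochberg adjustment over them. A gene was called at an adjusted p under 0.05 and an absolute log2 fold change of at least 1. Errors after ± are SD between libraries. The named genes follow the rule stated beside them. The genes, lists and comparisons were chosen with earlier results of these data known. Alternatives tried were pseudocounts of 0.1 and 5, other filters, scalings, weights and fold thresholds, the exclusion of genes found almost only in 1 organ, 1 fit of 15 libraries, and leaving out in turn each root and leaf library (root against leaf) and each tip library (root tip against leaf tip). Shared calls and the interaction were refitted without root replicate 3 only. The shared calls under other exclusions, the tip directions, level classes and shoot tip placement under other scalings, and the interaction of the named genes under other settings, were added after seeing the data. Plots were made in Python 3.11.15 with matplotlib 3.10.9.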

Additional observations from a re-analysis of the deposited data

Results flagged for a closer look

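The organ difference depended on the zone by the interaction test of limma. The root minus leaf difference was more positive in the mature zone than in the tips for 6185 genes and more negative for 4920 genes. The balance turned with the scaling, with 4763 against 6009 genes after median-ratio scaling and 3831 against 6396 after quantile normalization. Among the named genes it was larger in the mature zone by 2.68 for SHA_TRINITY_DN7736_c0_g14. For LA_TRINITY_DN22130_c0_g1 the interaction was -1.55, which was lost with a pseudocount of 0.1 (-0.64, limma adjusted p = 0.218), and for LE_TRINITY_DN2085_c0_g1, which was high in leaf and near 0 in all tips, it was -9.11. All are on the log2(TPM + 1) scale.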

How the results depend on the processing

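With a pseudocount of 5 the calls numbered 6232 for root against leaf, 4574 for root tip against leaf tip, 2246 for those shared by both zones and 5978 for the interaction, of which 47.7% were on the more positive side. With a mean of at least 5 TPM only 18575 genes were tested. The calls then numbered 7027, 5148 and 6525 for root against leaf, root tip against leaf tip and the interaction. A 4-fold threshold left 4407 genes, and 2385 among genes present in both organs. Keeping the 908 excluded genes moved the share of summed TPM held by root-higher genes to 43.21% in root and 8.184% in leaf. Leaving out each root or leaf library in turn gave 10793 to 11342 calls, and 6729 to 7087 among genes present in both organs. Leaving out each tip library gave 7993 to 8052 tip calls. The other 58 comparison counts and shares under alternatives stayed within 1.5 times the reported value or within its SD, and the root against leaf differences of the 4 named genes kept their direction and call wherever they were tested. The interaction of RO_TRINITY_DN44374_c0_g2, 0.26 as reported and not called, was -0.6728 with a pseudocount of 0.1, and that of LA_TRINITY_DN22130_c0_g1 lost its call at -0.6434 there and at -0.6397 under quantile normalization. Under quantile normalization 9412 of 10898 calls were among those reported, in the same direction, and 10198 of 10980 were under median-ratio scaling. In 0 genes did a root against leaf call turn to the other direction under any alternative. The tip libraries share replicate numbers, but their same-numbered deviations correlated at -0.0185 to -0.00455, so the numbers show no pairing. With a replicate block the tip calls were 7984. For root against leaf no paired analysis was possible because the leaf columns carry no number of a single sample. Counting depth is unknown, so low genes and exact zeros limit what can be said of them.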
